A study of Mus musculus with 20 samples.

Results

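A set of 9 classical estrogen targets, known from uterus, mammary gland and breast cancer cells, were followed in mouse liver: Greb1, Pgr, Ltf, Ctsd, Stc2, Myb, Rara, Bcl2 and Cxcl12. They were taken by gene name from the annotation of a 1-colour Agilent array, where 15 of the 55681 probes carried 1 of these 9 names. Of these, 9 probes of 5 genes (Greb1, Ctsd, Rara, Bcl2 and Cxcl12) were bright enough to be tested, and the 6 probes of Pgr, Ltf, Stc2 and Myb were not.

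The study asked how liver transcripts answer estradiol (E2, the main circulating estrogen) with and without estrogen receptor alpha, the product of Esr1. The 4 groups, of 5 females each with 1 array per animal, were null mice given E2, null mice given placebo, wild types given E2 and wild types given placebo. The ovaries of all 20 animals had been removed at 4 weeks of age. At 9 weeks each mouse received by gavage either E2 at 1 mg/kg or placebo, which was castor oil with 5% ethanol. Livers were taken 4 hours later. The labels trace the wild-type breeders to the parents of the null line, with mice kept 5 to a cage, and do not say which part of Esr1 the null allele lacks. A piece of liver holds several cell types, so fewer cells of a type and less RNA per cell cannot be told apart in these values.

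Estrogen receptor alpha is a nuclear receptor that, once bound by estradiol, attaches to estrogen response elements or to other DNA-bound factors and changes transcription of nearby genes. Greb1 and the progesterone receptor gene Pgr are textbook targets in breast cancer cells, and Ltf, which encodes lactoferrin, and Pgr are long-used markers of the estrogen response in the rodent uterus. In liver the same receptor is known mainly for effects on lipid and glucose metabolism and on secreted proteins.

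The dimmer Greb1 probe gave the largest fitted log2 difference of the tested probes, 2.15 for E2 in wild types, and the brighter gave 0.11. The dimmer probe entered the test only through the wild-type E2 group. The promoters of Greb1 are shown first because of that difference. The promoter of Ctsd stands beside them as the one with the most arms of the response element among the members. Sequences are from RefSeq on GRCm38.p6, run 5′ to 3′ on the strand of the gene, and span 250 bases before to 50 bases after an annotated start. Capitals mark an arm of the estrogen response element, GGTCA or, on the other strand, TGACC.
Greb1, upstream start (chr12:16800837-16801136, minus strand): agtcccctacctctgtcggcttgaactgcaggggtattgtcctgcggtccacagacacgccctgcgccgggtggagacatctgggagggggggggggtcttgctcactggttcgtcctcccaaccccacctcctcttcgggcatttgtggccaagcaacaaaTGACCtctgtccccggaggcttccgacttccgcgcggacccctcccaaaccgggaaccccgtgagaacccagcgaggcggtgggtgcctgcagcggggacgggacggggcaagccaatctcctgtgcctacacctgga
Greb1, downstream start (chr12:16757190-16757489, minus strand): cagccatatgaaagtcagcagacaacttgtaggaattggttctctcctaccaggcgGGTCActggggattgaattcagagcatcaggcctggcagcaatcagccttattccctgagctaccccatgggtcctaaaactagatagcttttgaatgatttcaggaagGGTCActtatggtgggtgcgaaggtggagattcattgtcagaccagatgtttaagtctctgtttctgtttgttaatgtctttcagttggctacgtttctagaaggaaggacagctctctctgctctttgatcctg
Ctsd (chr7:142387778-142388077, minus strand): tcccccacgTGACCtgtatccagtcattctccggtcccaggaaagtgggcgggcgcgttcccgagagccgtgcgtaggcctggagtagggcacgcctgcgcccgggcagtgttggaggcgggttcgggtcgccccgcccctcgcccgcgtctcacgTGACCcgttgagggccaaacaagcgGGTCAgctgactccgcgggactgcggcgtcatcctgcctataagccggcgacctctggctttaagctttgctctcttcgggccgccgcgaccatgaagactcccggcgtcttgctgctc

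The upstream Greb1 window held 1 arm, the downstream Greb1 window 2 arms and the Ctsd window 3 arms. All 9 members matched the RefSeq table, with 13 windows in all, and 7 of the 13 held an arm on either strand (53.8%), against 40.5% of all 32851 windows of the same length. The full element GGTCANNNTGACC, which contains both arms, was in none of the 13 windows and in 0.07% of all windows. The other windows with an arm belonged to Ltf, Stc2 and Rara. The windows of Pgr, Myb, Bcl2 and Cxcl12 had none, which says only that these letters are not in these 300 bases.

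The arrays lay on 4 slides. Between 51.6% and 70.0% of the 59305 non-control spots were well above background on an array, and arrays correlated at 0.978 to 0.995 across genes. Levels are given as log2 intensity relative to the array's 75th percentile, so a level of 0 is the 75th percentile and levels of different probes are not set against each other. Esr1 carried the labels of genotype on every array: its brightest probe lay between -2.09 and -1.31 in null E2 mice, between -2.16 and -0.93 in null placebo mice, between 0.12 and 1.02 in wild-type E2 mice and between -0.04 and 0.59 in wild-type placebo mice. Null mice were lower than wild types by a log2 difference of -2.0 under placebo and -2.23 under E2 (limma, adjusted p = 0.000482 and 1.81e-05). All 10 hepatocyte markers were well above background on all 20 arrays.

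None of the 9 genes was called for E2 in wild types. Differences were tested with limma over all genes, with Benjamini-Hochberg adjustment and a threshold of 0.05, and 5 of the 9 had a level that could be tested. For E2 against placebo in nulls 0 of 5 passed, where 0.00455% of all 21998 genes did. For E2 against placebo in wild types 0 of 5 passed, where 70 of all genes did (0.318%). The difference between the E2 effects in nulls and wild types gave 0 of 5, against 0.164% of all genes. The genotypes compared with each other gave 0 of 5 under placebo, against 0.0727% of all genes, and 0 of 5 under E2, against 0.464%. With calls this rare across all genes, 0 of 5 lies near the background in every comparison. At an unadjusted p under 0.05 the counts were 0 of 5 in nulls, 0 of 5 in wild types and 0 of 5 for the difference of the effects, against 6.06%, 8.28% and 7.39% of all genes. Between nulls and wild types they were 1 of 5 under placebo (Ctsd) and 0 of 5 under E2, against 10.1% and 9.63% of all genes.

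The 9 member probes, tested one by one over all 30961 probes, likewise gave 0 calls in each of the 5 comparisons. The share of all probes called was 0.00323% for E2 in nulls, 0.304% for E2 in wild types and 0.184% for the difference of the effects. Between nulls and wild types it was 0.0614% under placebo and 0.442% under E2. At an unadjusted p under 0.05 the counts were 0 of 9 for E2 in nulls (6.03% of all probes), 1 of 9 for E2 in wild types (8.31%) and 1 of 9 for the difference (7.14%), both the second Greb1 probe. They were 2 of 9 under placebo (9.71%), both of Ctsd, and 1 of 9 under E2 (9.49%), the second probe of Rara.

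The intervals of these 5 genes rest on the brightest probe of each. In nulls the fitted log2 E2 effects of the 5 genes ran from -0.11 to -0.01, and the intervals reached 1.31-fold at most. In wild types they ran from -0.14 to 0.11, and the 95% intervals reached no further than 1.39-fold in either direction. Over all 9 member probes the wild-type estimates ran up to 2.15 with an interval reaching 10.5-fold, at the second Greb1 probe, and the mean of both Greb1 probes gave 1.13 in wild types (limma, adjusted p = 0.317). The second probe entered the test only through the wild-type E2 group, so the 2.15 and the 1.13 both carry that selection. The median effect over all genes was -0.01 in nulls and 0.0022 in wild types. Of the 5 genes, 0 were above 0 in nulls and 3 in wild types, where 46.8% and 50.6% of all genes were above 0. Scaling to the array median instead moved the median of all genes by -0.11 in nulls and -0.22 in wild types, and put the 3 wild-type estimates above 0 (Greb1, Ctsd and Bcl2) below it.

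**Figure D1:**
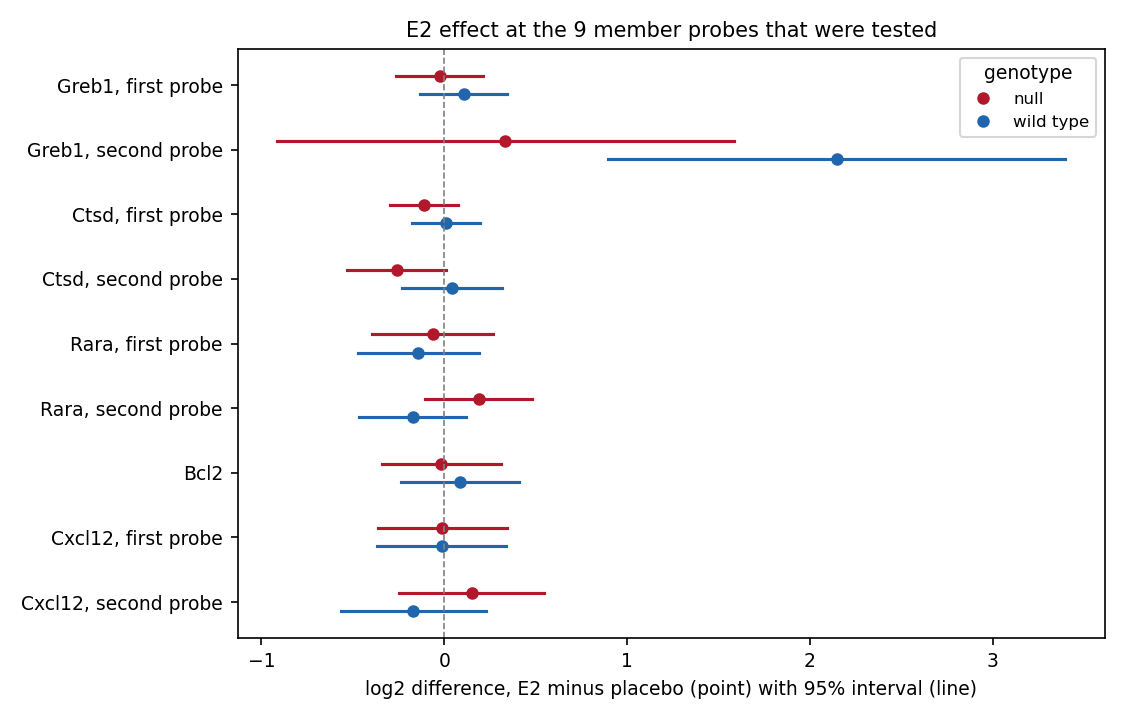
Log2 difference between E2 and placebo (x axis, point) with its 95% interval (line) at the 9 tested probes (y axis), in null mice (red, upper line of each pair) and wild types (blue, lower line), 5 animals per group. The intervals include 0 at every probe except the second Greb1 probe in wild types, whose interval runs from 0.90 to 3.40.

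Greb1 encodes a chromatin-bound cofactor of estrogen receptor alpha that is induced by estrogen in breast cancer cells. The array carries a pair of probes for it on chromosome 12, minus strand, of build mm9. The first lies at chr12:16677448-16677507, at position 8173 of the transcript, and the second at chr12:16678455-16678514, at position 7166. The first was well above background on all 20 arrays and the second on 11 of 20.

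The first Greb1 probe had levels of -1.01, -1.17, -1.25, -1.10 and -0.96 in null E2 mice and -0.81, -1.29, -1.19, -1.16 and -0.91 in null placebo mice. It had levels of -1.29, -1.30, -0.93, -1.09 and -0.95 in wild-type E2 mice and -1.10, -1.03, -1.30, -1.51 and -1.16 in wild-type placebo mice. All 4 groups overlapped. The E2 effect was -0.03 ± 0.11 (SE) in nulls, with an interval from -0.26 to 0.21, and 0.11 ± 0.11 in wild types, with an interval from -0.13 to 0.34 (limma over all genes, adjusted p = 0.989 and 0.83).

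The second Greb1 probe behaved differently. Its levels were -1.69, -4.21, -5.96, -4.02 and -3.72 in null E2 mice, and -5.43, -4.28, -4.59, -4.39 and -2.58 in null placebo mice. Its levels were -2.66, -3.46, -2.44, -3.56 and -3.49 in wild-type E2 mice, and -4.92, -5.01, -5.30, -6.33 and -4.79 in wild-type placebo mice. Every wild-type animal given E2 was above every wild-type animal given placebo, which held for 0.902% of all probes tested, while the null groups overlapped each other and both wild-type groups. It was well above background on 3 of 5 arrays in null E2 mice, 3 of 5 in null placebo mice, 5 of 5 in wild-type E2 mice and 0 of 5 in wild-type placebo mice. This probe entered the test only through the wild-type E2 group, so a difference from the dim placebo group was built into its selection.

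With each placebo array set no lower than its dimmest probe well above background, the wild-type group means differed by 3.24-fold at this probe. That ratio of means is not a lower bound, as the fitted interval began at 1.86-fold. The fitted log2 difference was 2.15 ± 0.60 (SE), with an interval from 0.90 to 3.40, and missed the threshold over all 30961 probes (limma, unadjusted p = 0.00196, adjusted p = 0.298). The E2 effect in nulls was 0.33 with an interval from -0.91 to 1.58 (adjusted p = 0.972), and the difference between the effects, null minus wild type, was -1.81 with an interval from -3.58 to -0.05 (adjusted p = 0.697). The spread over animals was 1.52 in null E2 mice and 1.04 in null placebo mice, against 0.53 in wild-type E2 mice and 0.62 in wild-type placebo mice (SD, n = 5 each).

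Whether this probe passed the threshold depended on which arrays set the spread. Fitted on the 10 wild-type arrays alone, the same log2 difference of 2.15 had an adjusted p of 0.0307 (limma), against 0.0896 without null E2 animal 1 and 0.298 with all 20 arrays. The probe entered the test only through the wild-type E2 group, so each of these values carries that selection. Over all alternatives the adjusted p ran from 0.0307 to 0.697 and the log2 difference from 0.49, with an offset background correction that compresses dim signals, to 2.39. The 3 slides that held both wild-type groups had 1 or 2 arrays per group, with differences of 1.43 to 3.78. As the wild-type groups did not overlap, a difference above 0 on each slide was given in advance and adds no support. On the 3 slides that held both null groups, again with 1 or 2 arrays per group, the difference was -0.54 to 3.17. Null E2 animal 1, at -1.69, was above all 5 wild-type E2 animals. Without it the effect in nulls was -0.22.

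The share of spots well above background was 70.0% in wild-type E2 animal 1 and 54.0% to 61.0% in the other wild-type E2 mice. In wild-type placebo mice the share was 55.2% to 58.7%. Its part in the difference at the second Greb1 probe was not tested. Across the 20 arrays the 2 Greb1 probes correlated at r = 0.41 (Spearman 0.37, permutation p = 0.071 and 0.10, adjusted over the 4 genes with a pair of tested probes 0.071 and 0.10), and at 0.47 without the 2 arrays farthest from the median. Within slides r was 0.41 and within groups 0.36. The pairs of Ctsd, Rara and Cxcl12 probes correlated at 0.72, 0.63 and 0.76 (permutation p = 9e-05, 0.0028 and 9e-05, adjusted 0.00018, 0.0037 and 0.00018).

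**Figure D2:**
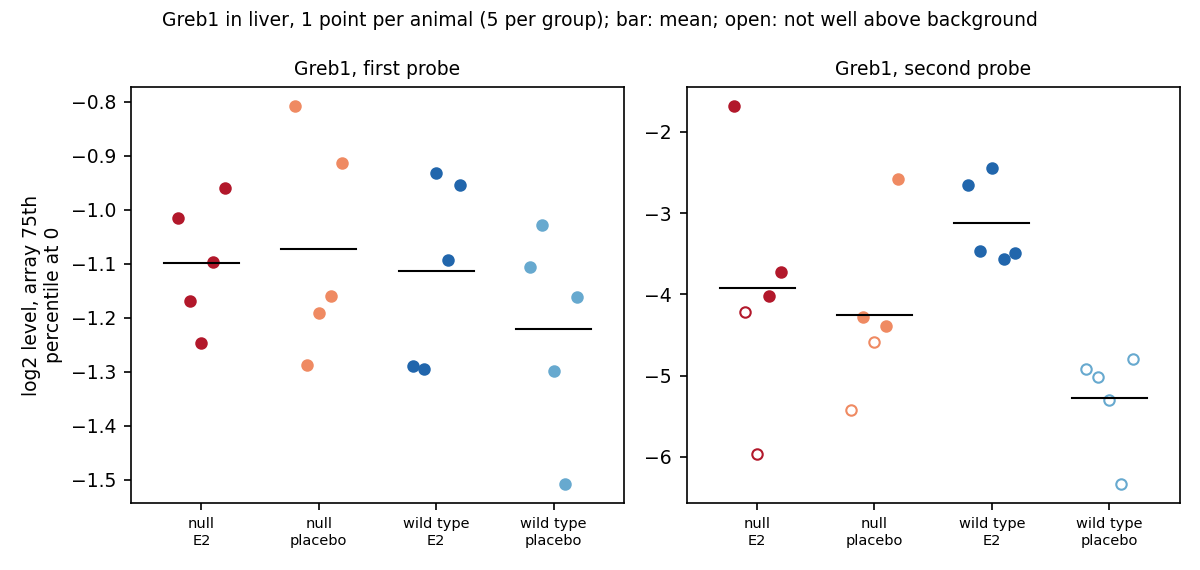
Log2 level (y axis, array 75th percentile at 0) of the first and second Greb1 probe in each animal, for null E2, null placebo, wild-type E2 and wild-type placebo mice (5 points each, bar at the mean, open points not well above background). The first probe overlaps in all groups, whereas at the second the wild-type E2 animals (-3.56 to -2.44) lie above the wild-type placebo animals (-6.33 to -4.79) and the null animals spread over both.

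Ctsd encodes cathepsin D, a lysosomal aspartic protease that breast cancer cells secrete under estrogen. Its brighter probe (chr7:149561962-149562021, minus strand, mm9) had levels of 5.87, 5.69, 5.88, 5.72 and 5.92 in null E2 mice and 6.23, 5.86, 5.85, 5.86 and 5.82 in null placebo mice. It had levels of 5.85, 5.53, 5.81, 5.79 and 5.65 in wild-type E2 mice and 5.69, 5.73, 5.64, 5.70 and 5.82 in wild-type placebo mice. The E2 groups overlapped their placebo groups in both genotypes. The E2 effect was -0.11 ± 0.09 (SE) in nulls, with an interval from -0.29 to 0.07, and 0.01 ± 0.09 in wild types, with an interval from -0.17 to 0.19 (limma, adjusted p = 0.90 and 0.985). In wild types a change of more than 1.14-fold lay outside the interval at this probe and scaling. The second Ctsd probe had an interval reaching 1.24-fold in wild types. Scaling to the array median, which moved the median of all genes by -0.22, gave -0.22 for Ctsd.

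Under placebo Ctsd stood higher in null than in wild-type mice by 0.21 on the log2 scale (interval 0.03 to 0.39, unadjusted p = 0.0264), which did not pass over all genes (limma, adjusted p = 0.407). The second Ctsd probe, whose annotated place (chr7:149566847-149568505) spans more of the genome than the probe itself, gave 0.38 (interval 0.10 to 0.65, adjusted p = 0.339). At that probe the levels were 2.60, 2.53, 2.09, 2.08 and 2.57 in null placebo mice, against 2.10, 2.0, 1.74, 2.02 and 2.14 in wild-type placebo mice, and the groups overlapped. At the first probe null placebo animal 1 lay apart from the rest of its group, and the difference was 0.13 without it. At the second probe it was 0.32 without it.

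**Figure D3:**
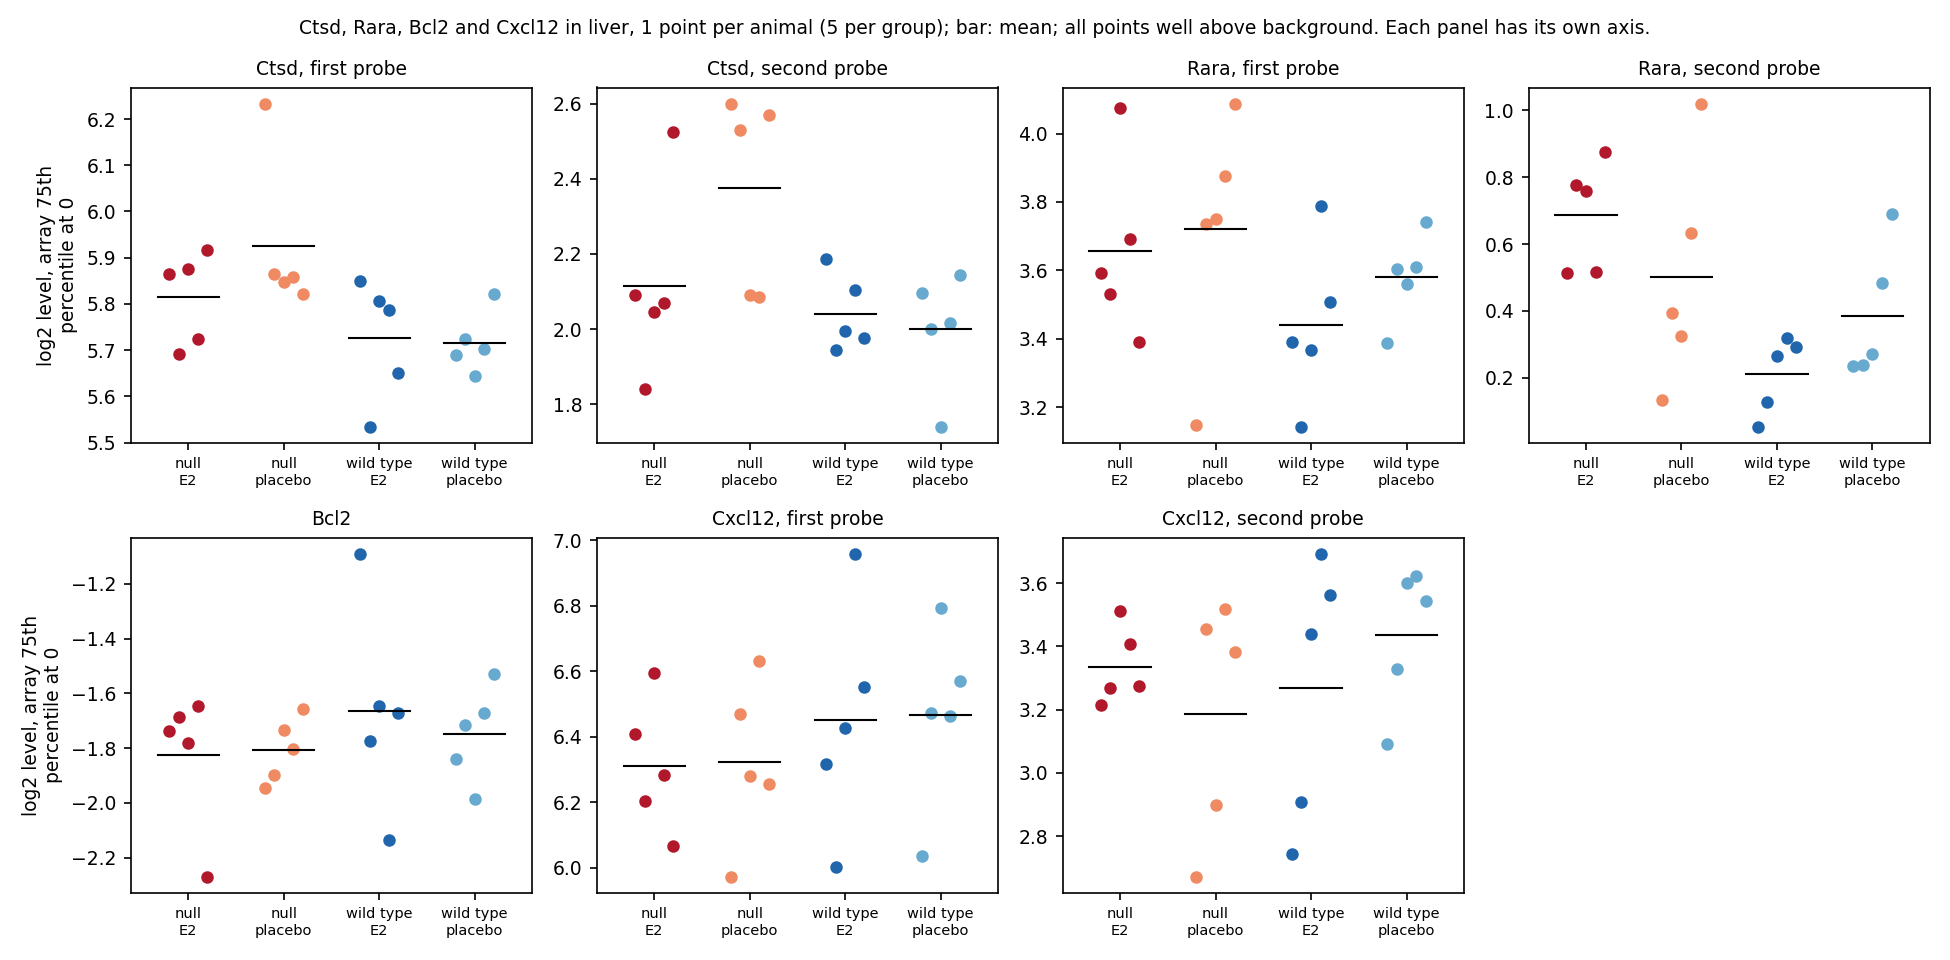
Log2 level (y axis, array 75th percentile at 0, a separate axis per panel) of the tested Ctsd, Rara, Bcl2 and Cxcl12 probes in each animal, for null E2, null placebo, wild-type E2 and wild-type placebo mice (5 points each, bar at the mean). E2 and placebo groups overlap in every panel within each genotype, and at the second Rara probe the null E2 animals (0.51 to 0.88) lie above the wild-type E2 animals (0.05 to 0.32).

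Rara encodes retinoic acid receptor alpha, a nuclear receptor whose gene is estrogen-induced in breast cancer cells. At its brighter probe (chr11:98836197-98836256, plus strand) levels were 3.39 to 4.08 in null E2 mice, 3.15 to 4.09 in null placebo mice, 3.14 to 3.79 in wild-type E2 mice and 3.39 to 3.74 in wild-type placebo mice. Fitted E2 effects were -0.06 (interval -0.39 to 0.27) in nulls and -0.14 (interval -0.47 to 0.19) in wild types (limma, adjusted p = 0.98 and 0.839). Both estimates were below 0 and neither passed the test.

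The second Rara probe (chr11:98835350-98835409) had levels of 0.51, 0.78, 0.76, 0.52 and 0.88 in null E2 mice, against 0.05, 0.13, 0.26, 0.32 and 0.29 in wild-type E2 mice. These groups did not overlap, which held with null higher for 1.21% of all probes. The difference was 0.48 ± 0.14 (SE), with an interval from 0.18 to 0.77, and was not called (limma over all probes, unadjusted p = 0.00294, adjusted p = 0.231, with a range over alternatives from 0.0674 to 0.643). The same comparison at the first probe gave 0.22 (interval -0.11 to 0.55, adjusted p = 0.684).

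Bcl2 encodes the founding anti-apoptotic protein of its family and is estrogen-induced in breast cancer cells. At its probe (chr1:108608970-108609029, minus strand) levels were -2.27 to -1.65 in null E2 mice, -1.95 to -1.66 in null placebo mice, -2.13 to -1.09 in wild-type E2 mice and -1.99 to -1.53 in wild-type placebo mice. Both E2 groups overlapped their placebo groups. The E2 effect was -0.02 (interval -0.34 to 0.31) in nulls and 0.09 (interval -0.24 to 0.41) in wild types (limma, adjusted p = 0.995 and 0.913).

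Cxcl12 encodes a chemokine that draws leukocytes through the receptor CXCR4 and is secreted by estrogen-treated breast cancer cells. At its brighter probe (chr6:117131227-117131286, plus strand) levels were 6.07 to 6.60 in null E2 mice, 5.97 to 6.63 in null placebo mice, 6.0 to 6.96 in wild-type E2 mice and 6.03 to 6.79 in wild-type placebo mice. The E2 effect was -0.01 (interval -0.36 to 0.34) in nulls and -0.01 (interval -0.37 to 0.34) in wild types (limma, adjusted p = 0.997 and 0.988). The second Cxcl12 probe (chr6:117125026-117125085) is placed on another annotated transcript and gave 0.15 in nulls and -0.17 in wild types, with intervals from -0.25 to 0.55 and from -0.56 to 0.23.

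The remaining 4 members were at or near background. Pgr encodes the progesterone receptor. Its 3 probes on chromosome 9 (chr9:8961434-8961493, chr9:8946947-8947006 and chr9:8968492-8968551, plus strand) were well above background on 0 of 20 arrays. Processed intensities were between 2.81 and 18.9, and the highest was in wild-type E2 animal 1 at the first probe. Neither a level nor a fold can be given, and no response of Pgr to E2 was detectable on these arrays.

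Ltf encodes lactoferrin, an iron-binding protein of secretions and of neutrophil granules. Its probe (chr9:110942873-110942932, plus strand) was well above background on 1 of 20 arrays, that of null E2 animal 1 at a level of -4.48. Its level ran from -5.92 to -4.48 in null E2 mice, -6.52 to -4.85 in null placebo mice, -6.70 to -4.87 in wild-type E2 mice and -5.79 to -4.70 in wild-type placebo mice. Values below background carry no order, so no direction is read from them.

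Stc2 encodes stanniocalcin 2, a secreted glycoprotein that inhibits the protease PAPP-A. Its probe (chr11:31260136-31260195, minus strand) was well above background on 8 of 20 arrays, 2 in each group. Null E2 animal 3, at -1.81, lay apart from every other animal, the next of which was wild-type E2 animal 1 at -3.53. Apart from that animal the levels were -5.36 to -4.44 in null E2 mice, -5.54 to -4.05 in null placebo mice, -5.12 to -3.53 in wild-type E2 mice and -5.32 to -4.31 in wild-type placebo mice.

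Myb encodes a transcription factor of immature and dividing cells that is estrogen-dependent in breast cancer cells. Its probe (chr10:20844736-20844795, minus strand) was well above background on 2 of 20 arrays, null E2 animal 1 at -4.22 and null placebo animal 3 at -1.46. In the wild types it was above background on 0 of 10 arrays. The single bright animals at Stc2 and Myb were different mice, and neither probe has a partner on the array to set against it. Null E2 animal 1 was also the only animal well above background at Ltf (-4.48) and the highest at the second Greb1 probe (-1.69). The cause was not tested.

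**Figure D4:**
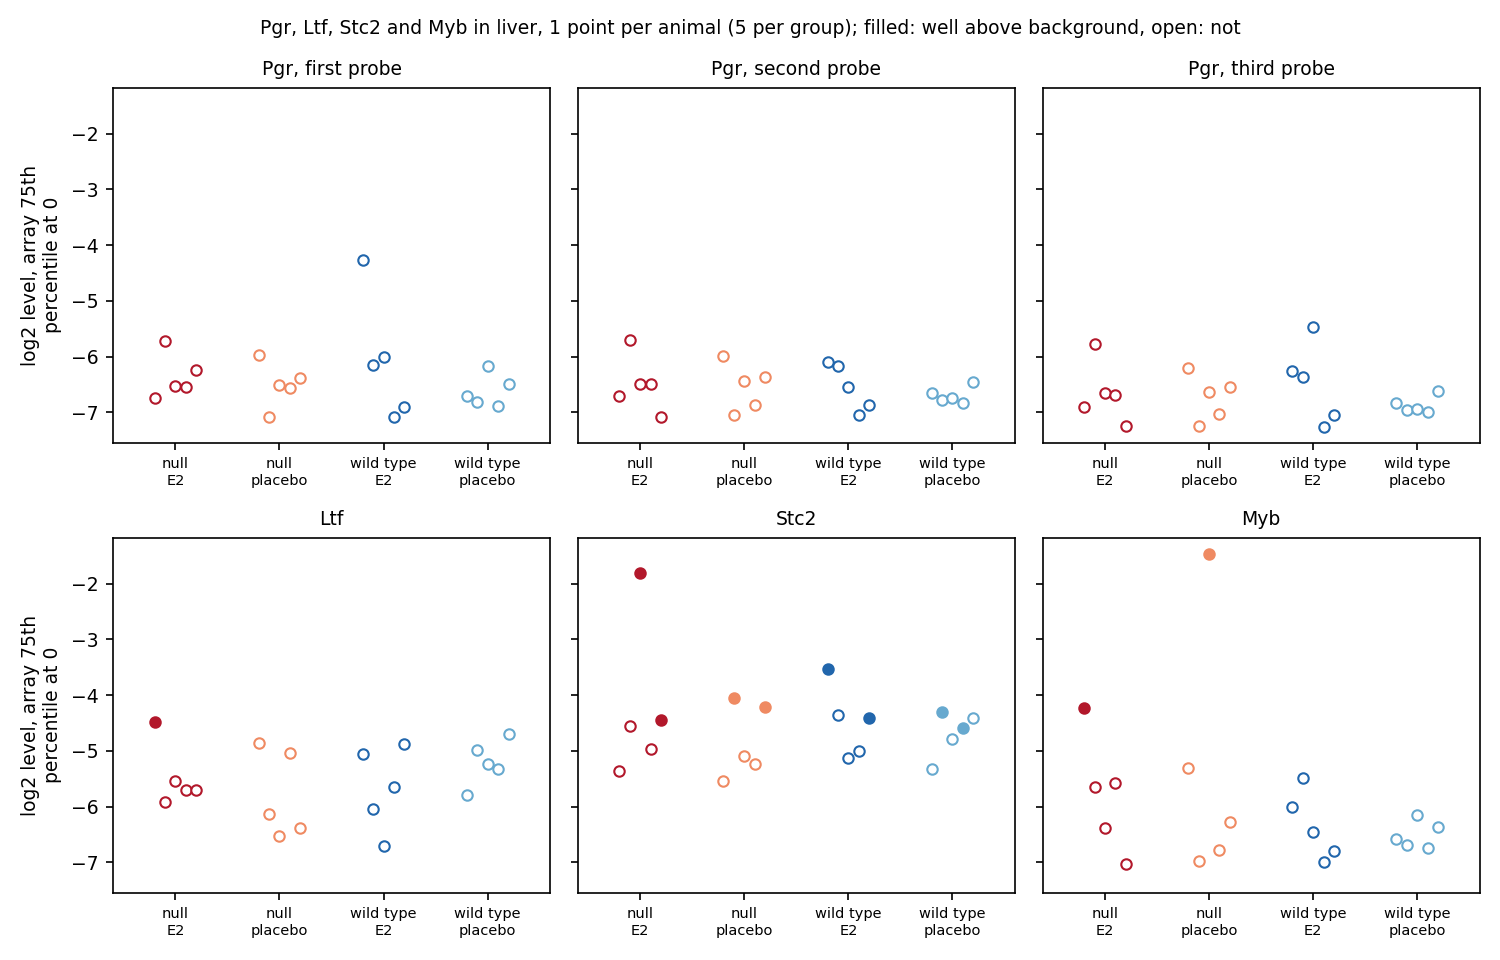
Log2 level (y axis, array 75th percentile at 0) of the 6 Pgr, Ltf, Stc2 and Myb probes in each animal, for null E2, null placebo, wild-type E2 and wild-type placebo mice (5 points each, filled where well above background). Filled points are absent for Pgr, and number 1 for Ltf, 8 for Stc2 and 2 for Myb.

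The wider set of genes known to answer estrogen in uterus, breast or their tumours was read beside the members. Of 47 such genes 37 were measured, and 0 were called in any of the 5 comparisons (limma over all genes). At an unadjusted p under 0.05 the counts were 0 for E2 in nulls and 3 for E2 in wild types, where the shares of all genes given above were 6.06% and 8.28%. The median E2 effect was -0.02 in nulls, with 12 of 37 genes above 0, and 0.03 in wild types, with 21 of 37 above 0.

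The 3 genes were Cdkn1a, Hspb1 and Egfr. Cdkn1a, which encodes the cell-cycle inhibitor p21, had an E2 effect of -1.19 (adjusted p = 0.873) in nulls and 2.21 with an interval from 0.49 to 3.92 (adjusted p = 0.472) in wild types. Its level averaged 0.64 ± 1.06 in null E2 mice, 1.84 ± 1.13 in null placebo mice, 2.03 ± 0.87 in wild-type E2 mice and -0.17 ± 2.13 in wild-type placebo mice (SD, n = 5 each), and the spread was widest in the wild-type placebo mice. In wild types Hspb1, which encodes a small heat shock protein, had an effect of -0.78, and Egfr, which encodes the epidermal growth factor receptor, had -0.54 (adjusted p = 0.472 and 0.53). Well-known targets with narrow intervals in wild types were C3, complement component 3, at 0.0037 (interval -0.18 to 0.19) and Igfbp4, an insulin-like growth factor binding protein, at 0.0028 (interval -0.21 to 0.22).

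Among genes that work with the members, the only gene called for E2 was in the list around Rara. Of 17 retinoid receptors, binding proteins and retinoic acid targets 15 were measured. For E2 in nulls 0 were called, where 0.00455% of all genes were. For E2 in wild types 1 was called higher, Tgm2, where 0.318% of all genes were called. At an unadjusted p under 0.05 the counts were 0 of 15 in nulls (6.06% of all genes) and 3 of 15 in wild types (8.28%). The list's median effect was -0.00031 in nulls and 0.0038 in wild types.

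Tgm2 encodes transglutaminase 2, a protein-crosslinking enzyme that retinoic acid induces in many cells. Its levels were 4.70 to 5.04 in null E2 mice, 4.85 to 5.64 in null placebo mice, 5.84 to 6.78 in wild-type E2 mice and 4.95 to 5.30 in wild-type placebo mice. Wild types given E2 did not overlap any other group. Tgm2 had an E2 effect of -0.25 (interval -0.58 to 0.08, adjusted p = 0.86) in nulls and 1.06 ± 0.16 (SE) in wild types, a 2.09-fold increase (limma, adjusted p = 0.00145). The difference, null minus wild type, was -1.31 (adjusted p = 0.0107), and a second Tgm2 probe gave -1.35 (adjusted p = 0.00399 over all probes). The call of the difference was lost with slide as a block (-1.28, adjusted p = 0.0619) and with only animals numbered 750 or above in the labels (-1.11, adjusted p = 0.209), while the call for E2 in wild types held in all 33 alternatives. The setting by animal number left out most null placebo mice, some mice of both E2 groups and no wild-type placebo mouse. It therefore tested fewer animals, in uneven groups.

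Cyp26a1 encodes the enzyme that clears retinoic acid and is itself a retinoic acid target. It was lower in null than in wild-type mice under E2 by -1.91 on the log2 scale (limma, adjusted p = 0.0312), with levels of -1.99 to -0.87 in null E2 mice against -0.48 to 0.91 in wild-type E2 mice. Its E2 effect was -0.40 (adjusted p = 0.924) in nulls and 1.35 with an interval from 0.53 to 2.16 (adjusted p = 0.315) in wild types. The call under E2 was lost in 11 of 33 alternatives, with a largest adjusted p of 0.335.

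**Figure D5:**
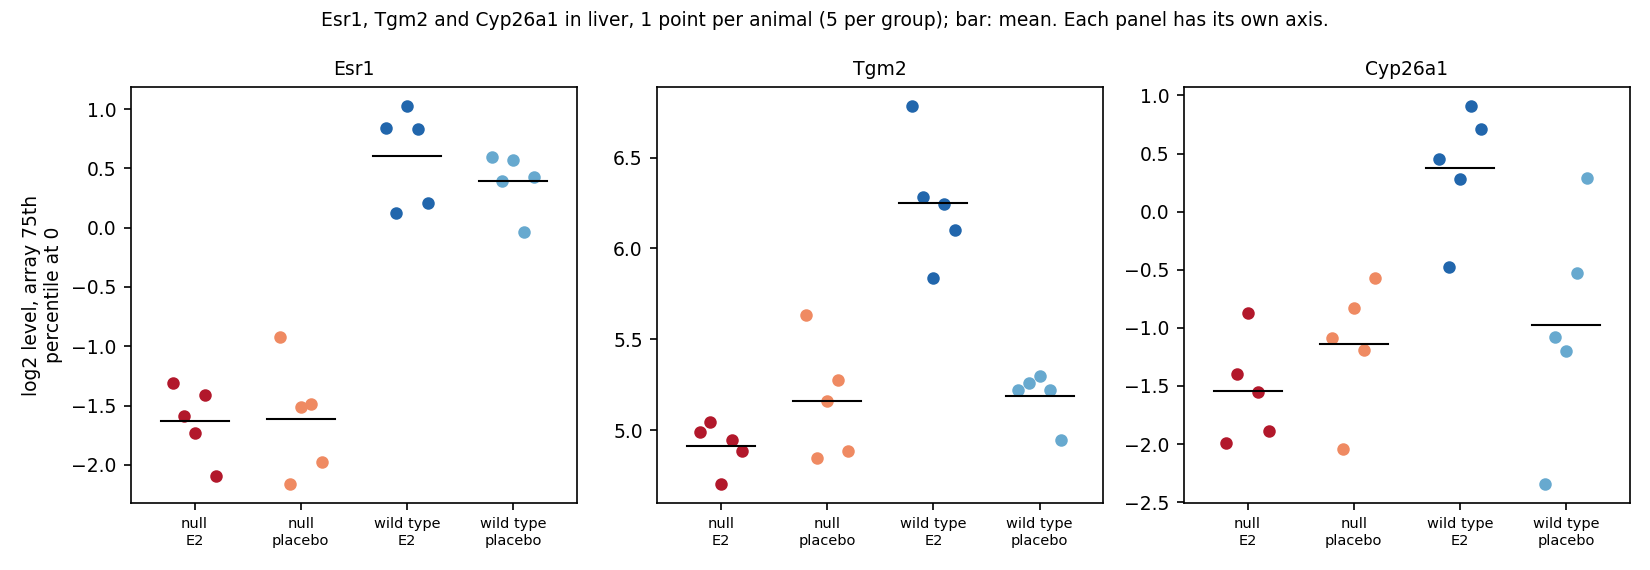
Log2 level (y axis, array 75th percentile at 0, a separate axis per panel) of Esr1, Tgm2 and Cyp26a1 in each animal, for null E2, null placebo, wild-type E2 and wild-type placebo mice (5 points each, bar at the mean). Esr1 is lower in both null groups, and for Tgm2 the wild-type E2 animals (5.84 to 6.78) lie above the animals of the 3 other groups.

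Genes around the other members gave no call for E2 in either genotype. The counts measured were 9 of 12 for progesterone receptor partners and targets, 4 of 6 for the transferrin family and its receptors, 21 of 22 for cathepsins and other lysosomal genes and 6 of 7 for stanniocalcins and the PAPP-A and growth factor genes near them. They were 8 of 10 for Myb relatives and partners, 14 of 16 for the Bcl2 family, 10 of 12 for the Cxcl12 axis and 8 of 9 for the Greb1 paralogue and cofactors of the estrogen receptor. At an unadjusted p under 0.05 for E2 in wild types, the counts were 1 of 21 lysosomal genes and 3 of 8 in the cofactor list. They were 0 in each of the other 6 lists, and the share of all genes was 8.28%.

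The lysosomal gene was Gusb, which encodes beta-glucuronidase, with an effect of -0.21 (limma, adjusted p = 0.476) in wild types. The cofactors were Foxa3 and Foxa2, liver pioneer factors, at -0.46 and -0.57, and Tle3, a corepressor, at 0.56 (adjusted p = 0.466, 0.583 and 0.572). Median E2 effects of the 21 lysosomal genes were -0.05 in nulls and -0.04 in wild types, those of the Bcl2 family 0.02 in nulls and -0.08 in wild types, and those of the Cxcl12 axis -0.04 in nulls and 0.09 in wild types. The only call among these lists between the genotypes, with either treatment, was Esr1 itself, which stands in the cofactor list.

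Markers of other cell types in the liver piece were read for the same comparison. Of the neutrophil markers, which bear on Ltf, 11 of 15 were measured, and Prtn3, which encodes the granule enzyme proteinase 3, was called. Its log2 difference was 1.96 for E2 in wild types (limma, adjusted p = 0.0282) and -2.44 for null against wild-type mice under E2 (adjusted p = 0.00246). Its E2 effect in nulls was 0.06 (adjusted p = 0.992), and the difference between the effects was -1.91 (adjusted p = 0.446). Prtn3 was well above background on 3 of 5 null E2 arrays, 2 of 5 null placebo arrays, 5 of 5 wild-type E2 arrays and 3 of 5 wild-type placebo arrays, so it entered the test only through the wild-type E2 group, and a difference from the dimmer groups was built into its selection. Its call in wild types was lost in 12 of 33 alternatives, among them no filter on dim probes (adjusted p = 0.0581). The summed level of the neutrophil markers overlapped in all groups, at 7.80 to 8.69 in null E2 mice, 7.83 to 9.27 in null placebo mice, 7.87 to 8.40 in wild-type E2 mice and 7.72 to 8.59 in wild-type placebo mice, and the defining markers Ngp, Mmp8, Mmp9 and Mpo did not pass the filter.

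No gene was called for E2 in either genotype among the Kupffer cell (11 of 11 measured), endothelial (11 of 11), stellate (12 of 12), T and NK cell (8 of 11), B cell (7 of 8), red cell (5 of 8), bile duct (7 of 7) or adipose (3 of 6) markers. The 11 Kupffer markers all had effects above 0 in nulls and in wild types (medians 0.18 and 0.27), on a scale that the array median would move by -0.11 in nulls and -0.22 in wild types. Of all genes 46.8% in nulls and 50.6% in wild types were above 0. Endothelial markers were above 0 for 7 of 11 in nulls and 11 of 11 in wild types, and T and NK markers for 4 of 8 and 7 of 8. Stellate markers were above 0 for 2 of 12 in nulls and 5 of 12 in wild types, and hepatocyte markers for 0 of 10 and 5 of 10. The 5 red cell markers were above 0 for 1 gene in nulls and for 5 genes in wild types (medians -0.08 and 0.49), with 4 at an unadjusted p under 0.05 in wild types (8.28% of all genes). For null against wild-type mice under placebo 5 were above 0 and 4 were under that p (10.1% of all genes). For the difference of the E2 effects 4 of the 5 were under it (7.39% of all genes). Alas2, the erythroid enzyme of heme synthesis, was called higher in null than in wild-type mice under placebo, by 0.90 on the log2 scale (limma, adjusted p = 0.00249). That call was lost in 3 of 33 alternatives: array-median scaling (adjusted p = 0.174), only the groups compared in the fit (0.13) and only animals numbered 750 or above in the labels (0.0606). The last of these left out most null placebo mice. The part of these shifts in the values of the members was not tested.

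The genes whose levels followed the brighter Greb1 probe most closely over the 20 arrays were Mindy3, Acsl5 and Ccdc90b, at r = 0.76, 0.76 and 0.75. Greb1 was chosen for this as the tested member with the smallest p for E2 in wild types. All 20 points share their arrays, and the correlation is given as a description. These r are the largest over all tested genes outside the members. How large the highest r would be for unrelated genes was not worked out.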

How the data were processed

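The deposited scanner files hold 1 array each of 20 livers. Per the file headers, Agilent Feature Extraction 10.10.1.1 gave each spot a background-subtracted, detrended processed intensity and placed probes on build mm9. The authors also deposited log2 values of 32526 probes, set against the scanner values at correlations of 0.999 to 1.0 and used as an alternative, with each array's median at 7.85 and no centring found. Per the submitters' processing notes limma was used, with no version given.

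Here log2 processed intensity minus each array's 75th percentile over 59305 non-control spots was used. A probe entered the test when 4 or 5 arrays of some group showed it well above background (30961 of 55681), and the brightest kept probe stood for a gene (21998 genes). Limma 3.58.1 in R 4.3.3 fitted 4 group means over 20 arrays (16 residual degrees of freedom, 2.44 prior), with 2-sided tests and p-values adjusted by Benjamini-Hochberg across genes. The same fit across probes gave each member probe. The number of arrays limits the precision.

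Named were all member probes, Esr1, from each list the genes called plus at most 3 with the smallest p for E2 in wild types, and the 3 genes most like Greb1. C3 and Igfbp4 were named after their values were seen. The members and lists were chosen with earlier results of these data known. Same-numbered animals of different groups deviated together at r > 0.1 in 8 of 20 pairs, so the numbers were not taken to pair animals. Alternatives covered scaling, background correction, filter, probe choice, slide, replicate number, animal number, arrays in the fit and each array left out.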

Additional observations from a re-analysis of the deposited data

Results flagged for a closer look

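In 4 of 60 groups of 5 animals at the 15 member probes, 1 animal lay apart from its group, and chance alone flags about 1 in 20 groups. For Stc2, null E2 animal 3 was at -1.81, while the other 4 were at -5.36 to -4.44. For Ltf, null E2 animal 1 was at -4.48, while the others were at -5.92 to -5.53 and not well above background. At the first Ctsd probe, null placebo animal 1 was at 6.23, while the others were at 5.82 to 5.86. For Bcl2, null E2 animal 5 was at -2.27, while the others were at -1.78 to -1.65.

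The E2 effect on Tgm2, which is a retinoic acid target and no member, differed between the genotypes by -1.31 on the log2 scale, null minus wild type (limma, adjusted p = 0.0107), and a second probe of the gene gave -1.35. The call was lost with slide as a block (-1.28, adjusted p = 0.0619) and with only animals numbered 750 or above (-1.11, adjusted p = 0.209), a setting with fewer animals in uneven groups.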

How the results depend on the processing

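Of 1050 member values under 33 alternatives, 20 of which left out an array, 1 had an adjusted p under 0.05 (limma): the second Greb1 probe in wild types, 2.15, with only the wild-type arrays in the fit. It was 0.49 with normexp correction and 0.66 in the deposited values. That probe entered the test only through the wild-type E2 group, so the adjusted p under 0.05 carries that selection. The sign changed in 60 values of 14 of 32 member results, none with a size over 0.33 as reported, and the cause was not tested. These results covered the 5 tested genes and the second Greb1 probe in each comparison. The second Ctsd probe was included only for the genotypes under placebo, and the second Rara probe only under E2. The second Cxcl12 probe was not included.

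Scaling to the array median moved the median of all genes by -0.11 in nulls and -0.22 in wild types for E2. It gave 0 genes called for E2 in nulls, 32 in wild types and 18 for the difference of the effects, and between nulls and wild types 7 under placebo and 39 under E2. E2 effects in wild types were then -0.12 for Greb1, -0.22 for Ctsd and -0.14 for Bcl2, and the difference for Bcl2 was 0.017. With only animals numbered 750 or above in the labels, these 5 counts were 0, 41, 10, 2 and 35. That setting left out most null placebo mice, some mice of both E2 groups and no wild-type placebo mouse. The E2 effect was then -1.08 at the second Greb1 probe in nulls, and -0.069 for Bcl2 and 0.18 for Cxcl12 in wild types. The difference was -0.24 for Rara and -0.31 for Cxcl12, and nulls minus wild types was 0.017 for Bcl2 under placebo and -0.11 for Greb1 under E2.

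The count for E2 in nulls was 0 with no filter, with the mean of the kept probes, with only the groups compared and with the replicate block, and 2 with slide as a block. The count under placebo was 8 with no filter, 8 with only the groups compared and 9 with slide as a block, and that for E2 in wild types was 46 with only the groups compared. The mean of the kept probes gave E2 effects in nulls of 0.15 for Greb1, 0.062 for Rara and 0.070 for Cxcl12, and -0.39 for Greb1 in nulls minus wild types under E2. In wild types it gave 1.13 for Greb1 (limma, adjusted p = 0.317), a mean that includes the second probe, selected through its bright group. Slide as a block gave 0.059 for Cxcl12 in nulls, and -0.028 for Ctsd and 0.056 for Cxcl12 in wild types. Cxcl12 in nulls was 0.011 in the deposited values and 0.00615 with quantile scaling. With the replicate block the second Greb1 probe in wild types was 2.15 (adjusted p = 0.239). The numbers were not taken to pair the animals, and the block changed no member's call.

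With 1 array left out, the count was 0 to 2 for E2 in nulls, and between nulls and wild types 6 to 46 under placebo and 67 to 120 under E2. The 6 came without wild-type placebo animal 3 and the 46 without null placebo animal 3. E2 effects in nulls ran from -0.079 to 0.040 for Greb1, -0.22 to 0.84 for its second probe, -0.21 to 0.028 for Rara, -0.060 to 0.096 for Bcl2 and -0.098 to 0.066 for Cxcl12. Those in wild types ran from -0.022 to 0.057 for Ctsd, -0.057 to 0.20 for Bcl2 and -0.14 to 0.097 for Cxcl12. The differences ran from -0.065 to 0.17 for Rara, -0.22 to 0.042 for Bcl2 and -0.11 to 0.13 for Cxcl12, and Greb1 under E2 from -0.030 to 0.060. Signal over background limits Pgr, Ltf, Stc2, Myb and the second Greb1 probe.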
